A study of Mus musculus with 6 samples.

Results

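The 2'-5' oligoadenylate synthetase genes of mouse bone marrow were compared after 4 weeks of stress: Oas1a, Oas1b, Oas1c, Oas1g, Oas2, Oas3, Oasl1 and Oasl2. They were taken by gene symbol and are 8 of 46333 genes measured. Oligoadenylate synthetases bind double-stranded RNA and join ATP into short chains with 2'-5' bonds. These chains act as a second messenger that sets off the breakdown of cellular and viral RNA. The genes are classical targets of type I interferon, which acts through transcription factors bound to the interferon-stimulated response element of their promoters.

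Bone marrow RNA of 3 libraries from mice under chronic unpredicted mild stress (CUMS), a run of changing mild stressors used as a model of depression, was compared with RNA of 3 libraries from mice labelled negative control. The labels give the stress as 4 weeks and name no strain, sex, age, allele or drug, and in the genotype field they repeat the group's name, and they do not say whether each library is a separate animal. The p-values therefore measure only the spread between these libraries, which may be technical. Levels are FPKM, fragments scaled for transcript length and for the size of the library. The FPKM of a gene also depends on the other transcripts in its library, so comparisons between libraries are not exact.

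The summed FPKM of a library lay between 593129 and 653026 in CUMS and between 561563 and 658595 in control. Counts are not in the files. With GENCODE M21 exon lengths the lowest values showed no clear whole multiples of 1 fragment. The lengths behind the deposited values are not given, so this check cannot decide. The depth is therefore unknown, and precision rests on the spread between libraries. A code in the file headers, whose meaning is not stated, was 1 in CUMS replicate 1 and control replicate 1 and 2 elsewhere, and 30.5% of the 12302 tested genes differed by it (limma adjusted p under 0.05). Both groups hold 1 library of code 1, so the code is balanced between them. Genes were tested if they reached 1 FPKM in at least 3 libraries, with limma on log2(FPKM + 1), and p-values were adjusted over all tested genes by the Benjamini-Hochberg method with a threshold of 0.05. A log2 change is CUMS minus control on that scale and is smaller than the ratio of FPKM for genes near the floor. The labelled tissue was checked with 8 lists of marrow cell markers, for erythroid cells, neutrophils, monocytes, macrophages, plasmacytoid dendritic cells, B cells, T and NK cells and megakaryocytes. Every marker was tested, so none was absent.

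The synthetase genes sit in 2 groups on chromosome 5 (GRCm38.p6, RefSeq positions). Oasl2 (114896926 to 114912245) and Oasl1 (114923143 to 114937911) lie side by side on the plus strand. Oas2 (120730333 to 120749886), Oas3 (120753098 to 120777684), Oas1c (120800194 to 120812540), Oas1b (120812635 to 120824163), Oas1g (120876142 to 120887613) and Oas1a (120896256 to 120907544) follow farther on, all on the minus strand but Oas1b. Oas1b and Oas1c start head to head, with 94 bases between their annotated first bases.

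Promoter windows in the RefSeq table (GRCm38.p6, 250 bases before to 50 bases after the start) matched 6 of the 8 genes: Oas1a, Oas1g, Oas1c, Oas3, Oasl1 and Oasl2. Oas1b and Oas2 had no entry. The windows were searched on both strands for the core of the interferon-stimulated response element (GAAA, any 2 bases, GAAA, here called the interferon-response core) and for TTCNNNGAA, the core of the gamma-activated sequence, which reads the same on both strands. The first was found in 3.44% and the second in 8.3% of 32851 windows. The 250 bases before the start of 4 genes are printed to show the element they share, with matches of the interferon-response core on either strand in capitals. The windows are chr5:120907526-120907775 for Oas1a, chr5:120887614-120887863 for Oas1g, chr5:120812515-120812764 for Oas1c and chr5:120777660-120777909 for Oas3, each read 5′ to 3′ on the minus strand. Positions in a window are counted from the start that the promoter table uses, as base 0. That start is the first base of the gene bounds given above for Oas1g, and lies inside them by 19 bases in Oas1a, 26 in Oas1c, 25 in Oas3, 97 in Oasl1 and 8 in Oasl2.
Oas1a: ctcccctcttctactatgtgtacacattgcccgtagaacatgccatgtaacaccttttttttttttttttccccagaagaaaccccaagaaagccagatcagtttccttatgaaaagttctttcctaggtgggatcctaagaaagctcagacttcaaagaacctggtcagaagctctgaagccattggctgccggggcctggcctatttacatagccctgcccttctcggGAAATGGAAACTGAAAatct
Oas1g: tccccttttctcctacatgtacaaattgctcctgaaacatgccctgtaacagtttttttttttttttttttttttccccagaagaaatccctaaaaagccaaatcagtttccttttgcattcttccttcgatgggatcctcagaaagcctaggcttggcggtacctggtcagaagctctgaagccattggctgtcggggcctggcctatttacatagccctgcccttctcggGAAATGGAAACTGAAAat
Oas1c: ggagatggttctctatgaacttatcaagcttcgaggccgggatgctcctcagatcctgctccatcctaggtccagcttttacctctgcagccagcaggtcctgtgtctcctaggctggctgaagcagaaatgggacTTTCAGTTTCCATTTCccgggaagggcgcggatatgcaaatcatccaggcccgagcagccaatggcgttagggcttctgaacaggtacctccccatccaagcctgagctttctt
Oas3: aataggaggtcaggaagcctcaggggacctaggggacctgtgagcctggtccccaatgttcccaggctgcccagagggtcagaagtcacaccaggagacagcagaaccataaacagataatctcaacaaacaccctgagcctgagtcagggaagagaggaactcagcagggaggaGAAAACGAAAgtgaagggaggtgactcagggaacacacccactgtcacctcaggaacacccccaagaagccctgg

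Oas1a and Oas1g carried the same pair of overlapping matches, GAAATGGAAA and GAAACTGAAA, from base −20 to −5 of the window start in Oas1a and from −18 to −3 in Oas1g. Counted from the first base of the gene bounds, the pair of Oas1a runs from −1 to 14, so all but 1 of its bases lie within those bounds, while that of Oas1g lies before them. Their 250-base windows were 86.9% identical over 244 aligned bases. Oas1c held the same letters on the opposite strand, from −114 to −99 of its window start, which is −88 to −73 of the first base of its bounds. That stretch (chr5:120812613-120812628) lies between Oas1c and Oas1b. Read on the plus strand, that of Oas1b, it runs forward and spans the bases from 22 to 7 before the annotated first base of Oas1b. Oas3 had 1 match, GAAAACGAAA, from −75 to −66. The Oasl1 and Oasl2 windows had none, which says only that these letters are not in these windows. TTCNNNGAA was found once, in the Oas1a window (TTCAAAGAA, −98 to −90), and it overlapped no match of the other motif. A match is a description of the letters and not evidence of binding.

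**Figure D1:**
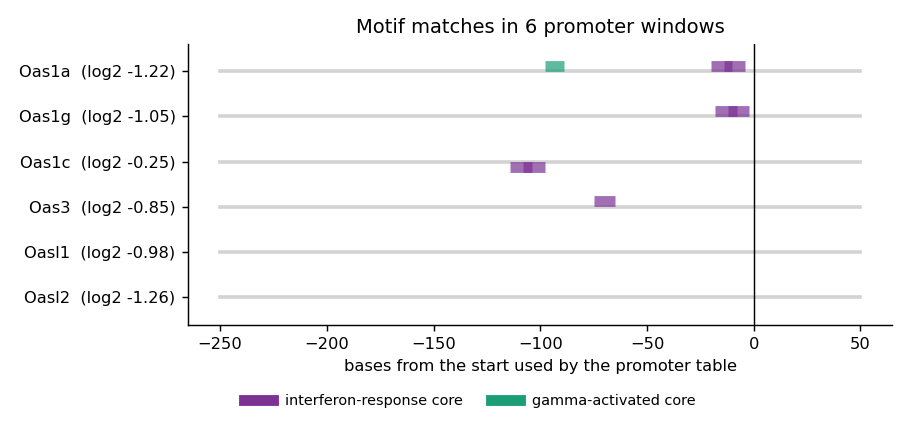
Position of motif matches in the 6 promoter windows, in bases from the start used by the promoter table (0), which is not the first base of the gene bounds except in Oas1g. Bars above the line are matches on the strand of the gene and bars below it on the opposite strand, and the log2 change (CUMS minus control) stands beside each gene. The paired match of Oas1a and Oas1g sits just before this start, and that of Oas1c ends at −99, on the opposite strand.

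The synthetase genes were lower in CUMS marrow. Of 8 tested synthetase genes 6 fell (Oas1a, Oas1b, Oas1g, Oas3, Oasl1 and Oasl2), none rose, and Oas1c and Oas2 did not pass the test in the fit with group alone. Over all tested genes 0.455% fell and 0.618% rose, 1.07% in all. The median log2 change of the 8 was −1.01, against −0.0017 for all tested genes. In each of the 8 genes every CUMS library was below every control library, as in 12.1% of all tested genes. The summed level of the 8 genes was 40.9, 42.0 and 44.5 FPKM in CUMS replicates 1, 2 and 3, against 84.1, 95.2 and 95.6 FPKM in control replicates 1, 2 and 3. That is 42.5 ± 1.82 FPKM in CUMS and 91.6 ± 6.58 FPKM in control (SD, n = 3 libraries each), 2.16-fold lower in CUMS. Within header code 1 the log2 changes of the 8 synthetase genes ran from −1.16 for Oas1a to −0.31 for Oas1c, and within code 2 from −1.35 for Oasl2 to −0.22 for Oas1c. Without CUMS replicate 2 or 3, or control replicate 2 or 3, 2 of the 8 passed, Oas1a and Oasl2. Without CUMS replicate 1 it was 4, and without control replicate 1 it was 7. In bulk marrow, fewer cells of a type and less RNA per cell cannot be told apart. With 3 against 3 libraries an exact permutation test (two-sided) of 1 gene cannot go below 0.1, and it gave 0.1 for each of the 8 synthetase genes.

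**Figure D2:**
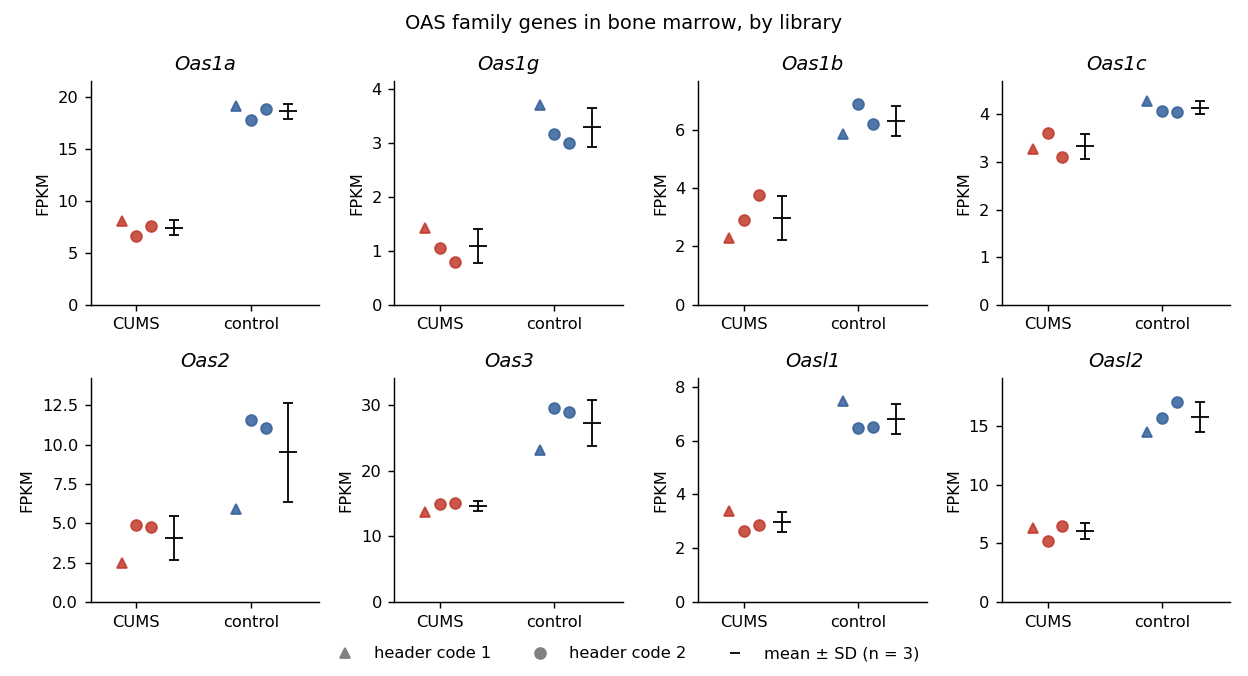
FPKM of the 8 synthetase genes in each library (points, CUMS left and control right), with the mean ± SD of 3 libraries (bars). Triangles are libraries of header code 1 and circles those of code 2. In each panel the CUMS points lie below the control points, narrowly in Oas1c.

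Oas1a, an active synthetase and the most abundant copy of the Oas1 group, had 8.02, 6.64 and 7.54 FPKM in CUMS libraries, against 19.1, 17.8 and 18.8 FPKM in control libraries. The groups lay far apart, and the spread within each was small. It was 2.51-fold lower in CUMS (log2 change −1.22, SE 0.10, limma adjusted p = 0.00419), and was called in every one of the 6 fits that left out 1 library.

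Oas1g, another active synthetase, was the lowest of the 8 in both groups, with 1.42, 1.05 and 0.786 FPKM in CUMS libraries and 3.69, 3.17 and 2.99 FPKM in control libraries. Every CUMS value was well below the lowest control value. It was 3.02-fold lower by FPKM (log2 change −1.05, SE 0.147, limma adjusted p = 0.0218). Since CUMS replicate 3 was below 1 FPKM, Oas1g reached the filter in 5 libraries, and the control libraries alone would have sufficed. The adjusted p was 0.122 and 0.1001 without CUMS replicates 2 and 3, and 0.0895 and 0.0993 without control replicates 2 and 3.

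Oas1a and Oas1g are close copies. Their longest coding sequences, of 1101 bases each in GENCODE M21, were 96.7% identical, while other pairs of the 8 genes reached at most 81.1%, that of Oas1a and Oas1b. Of the distinct stretches of 151 bases, the read length, 560 of 1735 in Oas1a transcripts (32.3%) also occur in Oas1g, as do 24% of those of Oas1g in Oas1a. No such stretch was shared between any other members. How the authors assigned such reads is not given in the sources used here, so the split between Oas1a and Oas1g is uncertain. Their summed level, which can also shift with the assignment because the genes differ in exon length (1885 and 2340 bases), was 9.45, 7.69 and 8.33 FPKM in CUMS libraries, against 22.8, 21.0 and 21.8 FPKM in control libraries.

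Oas1b, known in mouse as the flavivirus resistance gene, is annotated in RefSeq as a transcribed pseudogene of the C57BL/6J assembly, in which it carries a truncating stop. The labels do not name the strain of these mice. Its level was 2.28, 2.90 and 3.77 FPKM in CUMS libraries, against 5.88, 6.88 and 6.22 FPKM in control libraries. The SD of its CUMS values was 0.75 FPKM, near the 0.70 FPKM of Oas1a, and every CUMS value stayed below the control values. It was 2.12-fold lower (log2 change −0.89, SE 0.152), and its limma adjusted p of 0.042 was the closest to the threshold among the 6 called. The adjusted p was 0.0732, 0.188 and 0.0743 without CUMS replicates 1, 2 and 3, and 0.158 and 0.185 without control replicates 2 and 3. With every library scaled to the same total it was 0.0751.

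Oas1c, the head-to-head neighbour of Oas1b, is a copy without synthetase activity in mouse. It had 3.28, 3.61 and 3.10 FPKM in CUMS libraries and 4.29, 4.08 and 4.05 FPKM in control libraries. The groups did not overlap, but the gap was narrow and the change did not pass the test (log2 change −0.25, 95% interval −0.49 to −0.01, limma adjusted p = 0.310). With the replicate block the adjusted p was 0.125. Of its exons 227 bases overlap Gm43069 on the opposite strand, and whether the authors' counting used strand is not stated.

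Oas1c was also compared with Oas1a within each library. Library scaling cancels in the ratio of FPKM, but not wholly in the log2 ratio with its pseudocount. Oas1c stood at 0.409, 0.544 and 0.411 of the Oas1a level in CUMS libraries, against 0.225, 0.229 and 0.215 in control libraries. The log2 ratio of Oas1a over Oas1c, with the pseudocount of 1, was 0.95 in CUMS and 1.93 in control. Its difference, −0.97, had the smallest exact permutation p that 3 against 3 libraries allow (two-sided p = 0.1, 0.311 after Benjamini-Hochberg adjustment over the 28 pairs of synthetase genes). The log2 ratio of Oas1a over Oas3 was −0.90 in CUMS and −0.52 in control, with groups that only just failed to overlap (exact permutation p = 0.1, adjusted 0.311). In 9 of the 28 pairs the groups did not overlap, and most of these were pairs with Oas1c. The pairs share genes, so they are not independent. The share without overlap among pairs of other genes was not counted. The design cannot place the difference of any pair below 0.05 by this test.

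Oas2, whose protein holds a tandem pair of synthetase units, had 2.47, 4.92 and 4.79 FPKM in CUMS replicates 1, 2 and 3, against 5.90, 11.6 and 11.1 FPKM in control replicates 1, 2 and 3. In each group replicate 1, the library of header code 1, was far below the others. The mean was 4.06 ± 1.38 FPKM in CUMS and 9.51 ± 3.14 FPKM in control (SD, n = 3 libraries each), 2.34-fold lower in CUMS. The log2 change was −1.05 with an SE of 0.286, and it did not pass the test (limma adjusted p = 0.143). With the replicate block its adjusted p was 0.00232, and with the header code as a term 0.000363, where 4.31% and 7.31% of all tested genes fell. In the 4 libraries of code 2 alone it was 0.00099, where 8.84% fell. Within code 1 the CUMS level was 0.419 of the control level, and within code 2 it was 0.429. Without control replicate 1 the adjusted p was 0.0465.

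Oas3, whose protein holds a triple set of synthetase units, was the most abundant of the 8 in both groups. It had 13.7, 15.0 and 15.1 FPKM in CUMS libraries and 23.2, 29.6 and 28.9 FPKM in control libraries. The groups lay well apart. It was 1.86-fold lower (log2 change −0.85, SE 0.115, limma adjusted p = 0.0196). The adjusted p was 0.0593, 0.106 and 0.1001 without CUMS replicates 1, 2 and 3, 0.0873 and 0.116 without control replicates 2 and 3, and 0.0545 with the libraries scaled to the same total.

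The synthetase-like genes Oasl1 and Oasl2 encode proteins that end in a ubiquitin-like part. Mouse Oasl1 has no synthetase activity and is known to hold back translation of Irf7 mRNA, while mouse Oasl2 has kept the activity. Oasl1 had 3.37, 2.65 and 2.88 FPKM in CUMS libraries, against 7.47, 6.49 and 6.51 FPKM in control libraries. It was 2.30-fold lower (log2 change −0.98, SE 0.116, limma adjusted p = 0.012). Without CUMS replicates 2 and 3 the adjusted p was 0.0752 and 0.0819, and without control replicates 2 and 3 it was 0.0557 and 0.0735.

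Oasl2 had 6.34, 5.24 and 6.48 FPKM in CUMS libraries and 14.5, 15.7 and 17.1 FPKM in control libraries. Its log2 change of −1.26 (SE 0.114, limma adjusted p = 0.00551) was the largest decrease of the 8 on that scale, and it passed in all 6 fits that left out 1 library. Among all tested genes it ranked as the 6th and Oas1a as the 8th largest decrease. Oasl1 stood at 0.532, 0.506 and 0.444 of the Oasl2 level in CUMS libraries and at 0.514, 0.413 and 0.381 in control libraries, and these ranges overlap.

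**Figure D3:**
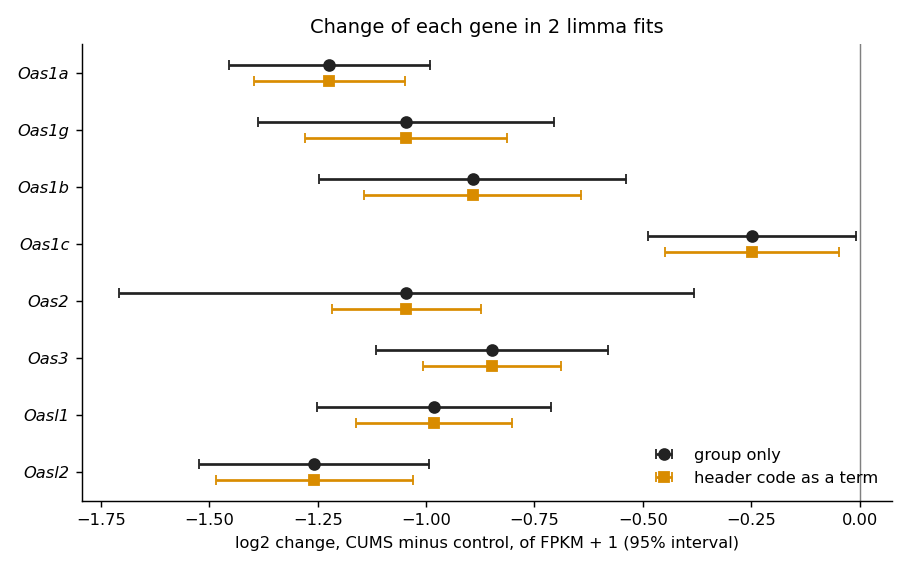
Log2 change of FPKM + 1, CUMS minus control, with its 95% interval for each gene, from the limma fit with group alone (circles) and with the header code as a term (squares). The estimates are the same in both fits, and the interval of Oas2 narrows most. Oas1c lies near −0.25, closest to 0 of the 8.

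From highest to lowest mean FPKM, the order in CUMS was Oas3, Oas1a, Oasl2, Oas2, Oas1c, Oas1b, Oasl1 and Oas1g. In control it was Oas3, Oas1a, Oasl2, Oas2, Oasl1, Oas1b, Oas1c and Oas1g. Neighbours whose ranges overlapped were Oas2 with Oas1c, Oas1c with Oas1b and Oas1b with Oasl1 in CUMS, and Oas2 with Oasl1 and Oasl1 with Oas1b in control. Oas1c made up 7.0% to 8.6% of the summed level in CUMS libraries and 4.2% to 5.1% in control libraries, and Oas3 33.6% to 35.6% and 27.6% to 31.0%.

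Oas2 also differed by the header code. Between libraries of code 2 and code 1, with group in the same fit, the log2 difference was 0.80 for Oas2 (limma adjusted p = 0.000737). The other 7 genes did not pass, with differences from −0.27 for Oas1g to 0.27 for Oas1b. The difference moved with exon length over the 11689 of 12302 tested genes that had a GENCODE M21 exon length. Its median was −0.17 in the shortest of 4 equal length classes and 0.24 in the longest, where 79.6% of genes were higher in code 2. Oas2 (4451 bases of exon) stood far above the median of its length class, 0.04. The part of exon length in the difference between codes was not tested. The median change between CUMS and control was −0.02 in the shortest and 0.04 in the longest class.

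**Figure D4:**
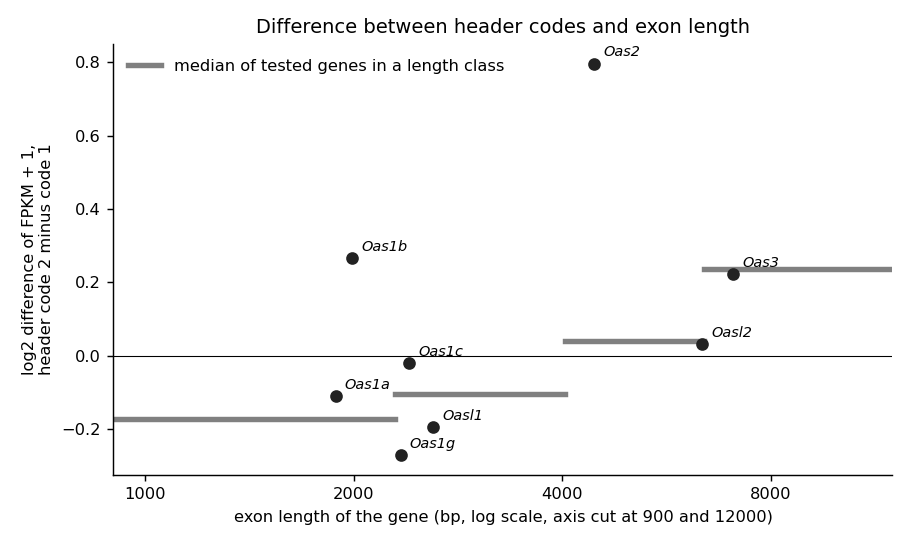
Difference between header codes (code 2 minus code 1, log2 of FPKM + 1, group in the fit) against exon length on a log scale, for the 8 synthetase genes (points). Grey lines are medians of the tested genes with a GENCODE M21 exon length in 4 length classes, from −0.17 to 0.24. Oas2 lies at 0.80.

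The other 4 Oas1 copies were near or at 0. Oas1d and Oas1f were listed at 0 in all 6 libraries, and Oas1h in all but control replicate 3. Oas1e had 0.0978, 0.337 and 0.389 FPKM in CUMS libraries and 0.523, 0.622 and 0.446 FPKM in control libraries. These are below the filter, so Oas1e was not tested, but its groups did not overlap and lay in the direction of the other copies.

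Of a list of genes that bear on the turnover of 2'-5' oligoadenylates or their action, Abce1, a ribosome recycling factor, had 24.9, 26.3 and 26.9 FPKM in CUMS libraries and 18.8, 19.7 and 17.3 FPKM in control libraries. Every CUMS library was higher, but the change did not pass (log2 change 0.46, SE 0.092, limma adjusted p = 0.0679), and with the replicate block its adjusted p was 0.0221. Pde12 and Akap7, phosphodiesterases that can degrade 2'-5' oligoadenylates, had log2 changes of 0.16 and 0.01 (limma adjusted p = 0.511 and 0.978). Enpp1 was below the filter. None of these 3 tested genes passed in limma, with or without the trend, and 1 had an unadjusted p under 0.05. The share of all tested genes under that p was not counted, so such counts have no background here or below.

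Genes of the interferon receptors, their signal chain and its restraint were read beside the synthetases, since this chain switches the Oas promoters on. Of 11 tested members 3 fell, with a median log2 change of −0.45 over the list, and 6 fell in the fit with the block, against 0.455% and 4.31% of all tested genes. Irf9, a DNA-binding factor of the type I interferon signal, had 21.8, 22.6 and 21.7 FPKM in CUMS libraries and 39.4, 34.8 and 34.5 FPKM in control libraries (log2 change −0.69, limma adjusted p = 0.0182). Irf7, which amplifies interferon production, and Usp18, which restrains the receptor, were the other genes that fell (log2 changes −1.03 and −1.12). Irf1 and Stat2, transcription factors of interferon signalling, had log2 changes of −0.52 and −0.57 (limma adjusted p = 0.071 and 0.109). In the blocked fit these were 0.0136 and 0.0113.

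The receptor chains and their kinases did not pass. Ifnar2 had 32.7, 32.9 and 34.4 FPKM in CUMS libraries and 42.3, 41.7 and 41.4 FPKM in control libraries (log2 change −0.32, limma adjusted p = 0.118, with the replicate block 0.0376). Ifnar1, Jak1 and Tyk2 had overlapping groups and log2 changes of −0.18, 0.08 and −0.17. Of 11 interferon genes 9 were listed at 0 in all libraries, among them Ifnb1, and none reached the filter. Ifng was at 0.411, 0.747 and 0.530 FPKM in CUMS libraries and at 0.322, 0.203 and 0.291 FPKM in control libraries, towards higher in CUMS and untested.

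Other sensors and effectors of double-stranded RNA gave no call. None of 8 tested members passed in limma, with or without the trend, and 5 had an unadjusted p under 0.05. The share of all tested genes with an unadjusted p under 0.05 was not counted. All 8 had values towards lower, with a median log2 change of −0.35, against −0.0017 for all tested genes. With the replicate block 4 fell, against 4.31% of all tested genes. Zbp1, a nucleic acid sensor of cell death, had 5.97, 5.32 and 5.56 FPKM in CUMS libraries and 12.2, 8.53 and 8.52 FPKM in control libraries (log2 change −0.68, limma adjusted p = 0.0784, with the block 0.0146). Dhx58, Ddx58 and Adar, an RNA-binding regulator, a cytosolic sensor and an RNA-editing enzyme, had log2 changes of −0.60, −0.36 and −0.41 (limma adjusted p = 0.116, 0.117 and 0.171). With the block these were 0.0108, 0.0364 and 0.0222. Eif2ak2, the protein kinase that also binds double-stranded RNA, had a log2 change of −0.29 with overlapping groups.

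Of 23 tested members of a list of other interferon-stimulated genes 8 fell: Ifi27l2a, Ifit3, Ifitm3, Xaf1, Rtp4, Mx2, Mx1 and Rsad2. All 23 had values towards lower, and 20 fell with the replicate block. Mx2 and Ifit3b reached 1 FPKM in the control libraries alone, so passing the filter already required a difference. Of the other 21 tested, 7 fell and 18 with the block, with a median log2 change of −0.61. Over all tested genes 0.455% fell, and 4.31% with the block. A further 3 genes of the list were not tested. Mx1, an antiviral GTPase, had 1.46, 2.45 and 2.18 FPKM in CUMS libraries and 4.59, 5.69 and 4.94 FPKM in control libraries (log2 change −1.01, limma adjusted p = 0.0283). Rsad2, which makes a chain-terminating nucleotide, had 50.9, 59.2 and 59.3 FPKM in CUMS libraries and 85.2, 88.9 and 84.8 FPKM in control libraries (log2 change −0.61, limma adjusted p = 0.0309). That interferon-stimulated genes were lower in these data was known when the list was made, so it is no independent evidence. Among all tested genes with a promoter window, the interferon-response core was found in 14 of 37 that fell (37.8%), in 1 of 32 that rose (3.1%) and in 354 of 8991 that did not pass (3.9%). Without the synthetase genes it was found in 11 of 32 that fell (34.4%). Only 37 of the 56 genes that fell and 32 of the 76 that rose had a window, and the rest were not searched.

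The 5 tested genes whose profile over the 6 libraries was nearest to the mean of the 8 synthetase genes were Mx2, Alkbh2, Xaf1, Slamf8 and Ifi27. Likeness was the root mean square difference of log2(FPKM + 1), each gene centred on its own mean. It was 0.07, 0.07, 0.09, 0.09 and 0.10 for these 5, against a median of 0.50 over 12294 genes. Alkbh2, a DNA repair dioxygenase, had 1.158, 1.23 and 1.12 FPKM in CUMS libraries and 2.97, 3.57 and 3.76 FPKM in control libraries. Slamf8, a surface receptor of myeloid cells, had 0.498, 0.696 and 0.780 FPKM in CUMS libraries and 1.95, 1.98 and 1.84 FPKM in control libraries. Mx2 and Slamf8 reached 1 FPKM in the control libraries alone, so their passing the filter already required a difference. Oas3 was the synthetase nearest to the mean of the others (0.10), and Oas1c and Oas2 were the farthest (0.41 and 0.39).

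Genes around the 2 loci were read as a comparison chosen after the values were seen. Within 200 kb of the Oas1, Oas2 and Oas3 locus 6 other genes were tested, and their log2 changes ran from −0.44 to −0.08. Within the same distance of the Oasl locus 10 were tested, from −0.31 to 0.19. None of these passed in limma, with or without the trend or with the replicate block, and 2 and 1 had an unadjusted p under 0.05. With the header code as a term 3 were lower past the threshold, Slc8b1, Rasal1 and Unc119b (limma adjusted p = 0.0246, 0.0413 and 0.0413), where 7.31% of all tested genes fell. Rasal1, with the change of −0.44, reached 1 FPKM in the control libraries alone.

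Markers of cells that could carry these transcripts moved in part with them. Of 12 monocyte markers 3 fell, Csf1r, Cx3cr1 and Fcgr1 (log2 changes −0.62, −1.10 and −1.21), against 0.455% of all tested genes. The 12 summed to 1071 to 1164 FPKM in CUMS libraries and 1097 to 1350 FPKM in control libraries. Ly6c2 alone made up 677 to 776 FPKM of the sum in CUMS libraries and 632 to 849 FPKM in control libraries. With the replicate block 6 fell, Ms4a4c, Ccr2 and Cd68 being added, against 4.31% of all tested genes. With the header code as a term 7 fell, against 7.31% of all tested genes. In that fit Klf4 rose (log2 change 0.28, limma adjusted p = 0.039), as did 746 of the 12302 tested genes. The CUMS and control values of Klf4 overlapped. Among genes of classical monocytes, Ccr2 had 50.5, 58.9 and 61.2 FPKM in CUMS libraries and 81.4, 84.4 and 77.6 FPKM in control libraries (log2 change −0.51, limma adjusted p = 0.0701, in the blocked fit 0.0196). Ly6c2 and F13a1 had overlapping groups with log2 changes of 0.05 and −0.00. Plasmacytoid dendritic cell markers summed to 143 to 157 FPKM in CUMS libraries and 179 to 193 FPKM in control libraries. Of these 8 none passed in limma, with or without the trend, and 3 had an unadjusted p under 0.05. With the block Spib and Cox6a2 fell (log2 changes −0.48 and −0.57, limma adjusted p = 0.0168 and 0.0327), against 4.31% of all tested genes. Siglech, their surface receptor, had 18.0, 19.0 and 18.1 FPKM in CUMS libraries and 18.6, 18.5 and 19.2 FPKM in control libraries. Tcf4, Klk1, Cd209d and Ccr9 had overlapping groups, with log2 changes of 0.10, 0.10, 0.18 and −0.06. Spib and Irf8 made up most of the sum, with means of 48.9 and 61.6 FPKM in CUMS and 68.7 and 74.1 FPKM in control. Irf8, also among the monocyte markers, did not pass (log2 change −0.26, limma adjusted p = 0.202, with the block 0.0589). The 7 B cell markers summed to 372 to 423 FPKM in CUMS libraries and 438 to 524 FPKM in control libraries, and macrophage markers to 165 to 181 FPKM in CUMS libraries and 191 to 250 FPKM in control libraries. None of the B cell or macrophage markers passed in limma, with or without the trend, and 2 in each list had an unadjusted p under 0.05. The share of all tested genes at that p was not counted for any list or locus. With the block 1 B cell marker fell, Cd79a, and 3 macrophage markers, C1qa, C1qb and C1qc, against 4.31% of all tested genes. The other macrophage markers, Vcam1, Spic, Cd5l, Adgre1 and Mertk, had overlapping groups, with log2 changes of 0.015, 0.024, 0.085, −0.136 and −0.160. Among B cell markers Ms4a1, Ebf1, Igll1 and Pax5 also overlapped (0.046, 0.161, −0.100 and −0.100). The lists therefore did not move as a whole. Erythroid, neutrophil, T and NK cell and megakaryocyte markers gave no call either, with or without the trend or with the block, and none had an unadjusted p under 0.05. The share of haemoglobin genes in the FPKM total was 31.7% to 35.2% in CUMS libraries and 28.8% to 29.2% in control libraries. The part of any of these cells in the change of the synthetase genes was not tested.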

How the data were processed

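Bone marrow RNA of 6 libraries (3 CUMS, 3 control) was sequenced by the authors in paired reads of 151 bp, per the labels. The deposited values are FPKM, a unit inferred here, since fractional values occur and library sums differ (561563 to 658595). The submitters' processing notes name HISAT2 2.1 and the build mm10, featureCounts 1.6.4, and, without roles, DESeq2 2.11.40.6, bcl2fastq 2.19 and cutadapt 1.16.5. Neither the tool behind the values nor the use of strand is given in the sources used here.

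The tests planned counts where the files held them. For FPKM limma 3.58.1 with a trend (R 4.3.3) was used on log2(FPKM + 1), tested on simulated data, with group as the only term. Python 3.11.15, pandas 2.3.3, scipy 1.17.1 and Biopython 1.88 made the tables. Positions and promoters are from RefSeq GRCm38.p6, transcripts from GENCODE M21. The genes named were every member, up to 4 genes of smallest p and all called genes of each pathway list, and the 5 genes nearest in profile. Others were chosen after their values were seen. Some genes are not reported here. The members and lists were chosen with earlier results of these data known.

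Replicate numbers were checked as pairs. Deviations from the group mean correlated across genes by 0.689, 0.452 and 0.363 for the same number, and by 0.459 and 0.362 for numbers 2 and 3 crossed. All 3 same-number values are above 0.1, and for that reason the replicate block is given where it changes a call. Numbers 2 and 3 correlated about as well crossed as with the same number. These values are therefore no evidence that numbers 2 and 3 are pairs. The pair of number 1 also shares the header code. No source names pairs.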

Additional observations from a re-analysis of the deposited data

How the results depend on the processing

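The number of genes that differed between CUMS and control was 132. Most of them rose (76 against 56 that fell), while with the libraries scaled to the same total 65 rose and 101 fell. The number was 959 with the replicate block, 1645 with the header code as a term, 2173 in the 4 libraries of header code 2, 199 with quantile normalization and 36 with no filter on low values. Leaving out 1 library gave 17 to 262 genes. Of the 8 synthetase genes 6 passed, all lower. The number was 2 with no filter on low values (Oas1a and Oasl2), 5 with a pseudocount of 0.1, 4 with the libraries scaled to the same total, and 7, Oas2 among them, with the replicate block, the header code as a term or header code 2 alone. Leaving out 1 library gave 2 to 7, namely 4 without CUMS replicate 1, 7 without control replicate 1 and 2 without any one of the other 4 libraries. Oas1a and Oasl2 passed under all 16 alternatives, and Oas1c under none. No synthetase gene changed direction under any alternative that tested it (Oas1g was not tested where 1 FPKM was required in all 6 libraries). The log2 ratio of the summed level was −1.11, and −1.17 to −1.08 over the fits that left out 1 library. Scaling moved the median change of all genes to −0.04. The replicate block changed no call of a member other than Oas2.

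The depth is unknown, so values near the floor, such as those of Oas1g and Oas1e, carry a counting error that cannot be given.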
